A study of Rattus norvegicus with 10 samples.

Results

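The response of rat thyroid cells to silencing of FoxE1 was measured against cells that had received a non-silencing siRNA. The data are the 5 arrays titled as siFoxE1 vs siScramble, out of 10 arrays in all. PCCl3 is an established line that grew out of normal rat thyroid and keeps features of the follicular cell. It was transfected with a pool of siRNAs against FoxE1 (siFoxE1 PCCl3) or with a non-targeting pool (siScramble PCCl3), each at 25 nM, and RNA was taken after 48 h. Both groups were of this 1 line, grown with the same hormone mixture that includes TSH, and the labels name no altered allele in either. On 4 individual arrays the RNA of 1 siFoxE1 culture in Cy5 was hybridized with that of 1 siScramble culture in Cy3, and 1 further array held the pooled RNA of both conditions with the dyes exchanged. Because the pool was made of the same RNA, n is 4 cultures throughout. Only 1 siRNA reagent was used per condition, so an effect of the reagent apart from FoxE1 cannot be told apart from silencing. Values are log2 ratios of siFoxE1 over siScramble, where 1 is a doubling and -1 a halving of the signal.

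FoxE1 is a forkhead transcription factor of thyroid, palate and hair follicle cells. Forkhead factors bind DNA through a winged-helix domain, and FoxE1 can bind in closed chromatin and open it for other factors. In the adult thyroid it works beside Pax8 and Nkx2-1 to keep follicular cells differentiated, and it binds the promoter of thyroglobulin (Tg) at a site with the core AAACA and can act together with nuclear factor I.

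Each array had 58717 spots, of which 57.1 to 68.2% were well above background per dye, and no spot was saturated. The follicular cell markers Tg, Slc5a5, Tshr, Pax8, Nkx2-1 and Foxe1 were well above background in both channels of all 5 arrays. Of markers of other cells that a thyroid can hold, 6 of 14 leukocyte, 1 of 8 endothelial, 3 of 8 fibroblast and 2 of 8 parafollicular C cell markers were bright enough to be tested. The arrays differed in width: the SD of the log2 ratio over all 9886 genes tested was 0.194 and 0.175 for replicates 1 and 2, 0.331 and 0.298 for replicates 3 and 4, and 0.214 for the pool. Replicates 3 and 4 were the most alike pair (Pearson's r = 0.844 across genes, which are not independent replicates), and replicate 2 was the only culture whose ratios ran slightly against those of the pool (r = -0.097). Replicate 3 and the pool shared 1 slide, and replicates 1, 2 and 4 the other.

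Foxe1 itself was lower in the siFoxE1 channel on all 5 arrays, with log2 ratios of -0.77, -0.46, -0.62 and -0.39 for replicates 1 to 4 and -1.03 for the pool. Its log2 intensity was 11.29, 12.36, 11.59 and 11.49 in the siFoxE1 cultures and 12.06, 12.82, 12.21 and 11.88 in the siScramble cultures of the same numbers. Every silenced culture was thus below its own control, although the ranges of both groups overlapped because culture 2 was high in both. In all 4 cultures siFoxE1 was in Cy5 and siScramble in Cy3. Here and below, a gap in intensity between the groups may therefore hold dye bias. How many of all genes separate the groups in this way was not counted. The fit over all 5 arrays, which includes a term for the dye, gave a log2 fold change of -0.79 (standard error 0.0856, adjusted p = 0.0226 from limma), a 1.73-fold lower level. This fitted value lies beyond that of every culture, because the pool weighs as much in it as the 4 cultures together. The mean of the 4 cultures alone was -0.56. In bulk RNA, fewer cells with the transcript and less transcript per cell cannot be told apart. Of 17 other forkhead genes tested, none passed the adjusted test and the median was -0.01. An unadjusted p under 0.05 was reached by 1 above 0 (8.95% of all genes) and 3 below (7.67%). The 3, named after their values were seen, were Foxn3 (-0.38, adjusted p = 0.217), Foxk1 (-0.35, adjusted p = 0.223) and Foxk2 (-0.33, adjusted p = 0.281).

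At an adjusted p under 0.05, 14 of 9886 genes differed (0.142%), 8 lower (0.0809%) and 6 higher (0.0607%) in siFoxE1 PCCl3 cells. Over probes it was 22 of 18124 (0.121%). A fitted log2 fold change of at least 0.5 in size was seen in 166 genes (1.68%) and of at least 1 in 9 genes (0.091%). An unadjusted p under 0.05 was reached by 1643 genes (16.6%), 8.95% above 0 and 7.67% below. On all 5 arrays 2089 genes (21.1%) had 1 sign, 10.1% above 0 and 11% below. These shares are to be set beside the list counts that follow. With the 4 individual arrays alone, where dye and siRNA cannot be told apart, 359 genes passed, among them 13 of the 14, all except Cd68.

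Ahcy, which encodes adenosylhomocysteinase, the enzyme that clears S-adenosylhomocysteine after methylation reactions, had the lowest fitted value of all genes tested. Its log2 intensity was 10.12, 11.05, 10.34 and 10.38 in the siFoxE1 cultures against 12.21, 12.65, 12.51 and 12.29 in the siScramble cultures, and the groups did not overlap. The ratios were -2.09, -1.60, -2.17 and -1.91 in the cultures and -1.77 in the pool. The fitted log2 fold change was -1.85 (standard error 0.108, adjusted p = 0.0011 from limma). Of 16 genes of the methionine cycle and transsulfuration tested, Ahcy included, 6 had an unadjusted p under 0.05 below 0 (7.67% of all genes) and none above, and the median was -0.05. Next to Ahcy, the lowest members with 1 sign on all 5 arrays were Nnmt, a methyltransferase of nicotinamide (-0.35, adjusted p = 0.224), and Mat2a, which makes S-adenosylmethionine (-0.31, adjusted p = 0.292).

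Sem1, a small subunit of the 26S proteasome that also binds BRCA2, gave ratios of -0.87, -0.84, -1.08 and -0.81 in the cultures and -0.81 in the pool (fitted -0.85, standard error 0.0753, adjusted p = 0.00878 from limma). A second probe of Sem1 fell as well (-0.77, adjusted p = 0.0154). The siFoxE1 cultures lay between 12.41 and 13.02 on the log2 intensity scale and the siScramble cultures between 13.28 and 13.86, without overlap. The proteasome as a whole stayed near 0, with a median of 0.03 over 37 genes tested, of which 1 had an unadjusted p under 0.05 above 0 and 2 below. Its next lowest member with 1 sign was Psmd9, an assembly chaperone of the proteasome base (-0.28, adjusted p = 0.217).

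The other falls took in a growth factor, a transcription factor and 3 membrane or membrane-associated proteins. Areg, the EGF receptor ligand amphiregulin, had ratios of -0.68, -0.54, -0.76 and -0.56 in the cultures and -0.78 in the pool (fitted -0.71, adjusted p = 0.0154). Cebpd, a C/EBP transcription factor induced by inflammatory signals, had -0.67, -0.67, -0.89 and -0.65 and -0.48 in the pool (fitted -0.60, adjusted p = 0.0425). Gprc5a, an orphan receptor of epithelia that retinoic acid induces, was least changed in replicate 4 (-0.34) and most in the pool (-0.83), with a fitted value of -0.69 (adjusted p = 0.0411). Pacsin2, which bends membranes in endocytosis, ranged from -0.54 in replicate 2 to -1.08 in replicate 3 (fitted -0.82, adjusted p = 0.0425), while its second probe gave -0.40 (adjusted p = 0.191). Cd68, a lysosomal protein of macrophages, passed at -0.66 (adjusted p = 0.0147) although its 4 cultures gave 0.10, -0.00, 0.01 and -0.00. Its fitted value rests on the pool (-1.34). None of the other 5 leukocyte markers tested passed, with fitted values between -0.045 and 0.25. Gene by gene these ratios can be followed in the plot of the 14 genes by array.

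**Figure D1:**
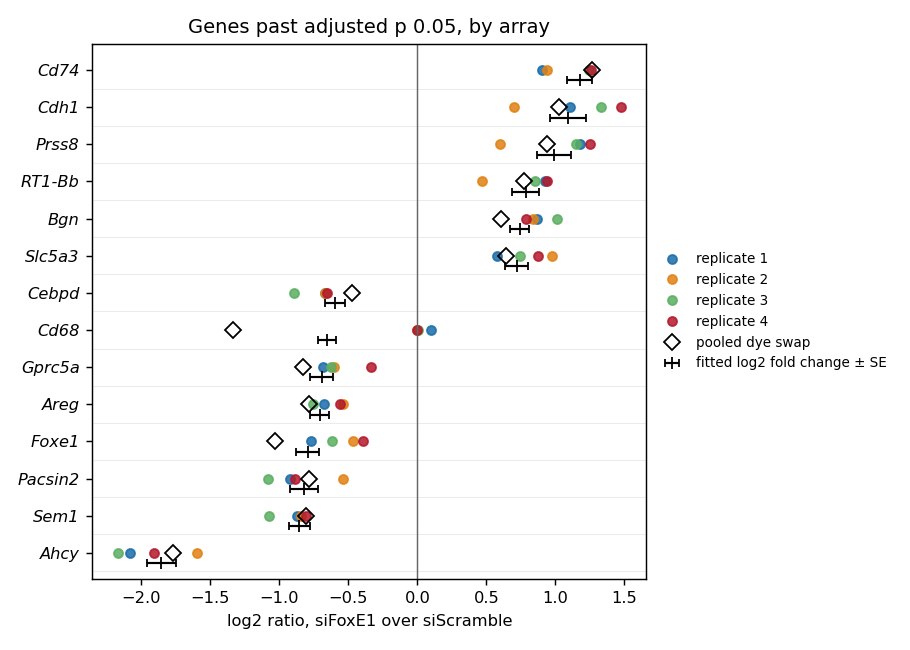
Log2 ratio of siFoxE1 over siScramble (horizontal axis) for the 14 genes past adjusted p 0.05. Filled circles are the 4 cultures, open diamonds the pooled dye swap, and bars the fitted log2 fold change ± its standard error. On every gene except Cd68 the 5 arrays lie on 1 side of 0.

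Cd74, the invariant chain that guides MHC class II molecules to the endosome, rose most, with ratios of 0.90, 0.94, 1.24 and 1.26 in the cultures and 1.27 in the pool (fitted 1.18, standard error 0.0909, adjusted p = 0.0043 from limma). Its level differed between cultures (9.93, 8.49, 8.43 and 9.20 in siScramble and 10.83, 9.43, 9.67 and 10.46 in siFoxE1), so the groups overlapped while each silenced culture exceeded its own control. Cdh1 encodes E-cadherin, the adhesion molecule of epithelial junctions. Its siScramble cultures lay at 7.53, 7.75, 7.35 and 7.19 and its siFoxE1 cultures at 8.64, 8.45, 8.69 and 8.66, with no overlap. The fitted value was 1.09 (standard error 0.133, adjusted p = 0.0425). Prss8, the membrane-anchored protease prostasin, which activates the epithelial sodium channel, likewise separated both groups, from 6.97 to 7.45 in siScramble and from 8.05 to 8.60 in siFoxE1 (fitted 0.99, standard error 0.122, adjusted p = 0.0425). Both were least raised in replicate 2, at 0.70 and 0.60. Neither Cdh1 nor Prss8 passed the adjusted test with no filter on dim probes or with no background correction, with the same direction in both.

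Of the remaining rises, RT1-Bb, a beta chain of rat MHC class II, gave 0.93, 0.47, 0.85 and 0.94 in the cultures and 0.77 in the pool (fitted 0.79, adjusted p = 0.046), and its dimmer second probe 0.31 (adjusted p = 0.21). Slc5a3, a sodium-coupled transporter of myo-inositol that cells use as an osmolyte, gave 0.58, 0.97, 0.74 and 0.87 and 0.65 in the pool (fitted 0.72, adjusted p = 0.0424). In a fit of all 10 arrays with the replicate number as a block its adjusted p was no longer under 0.05, and the same held for Cd68. Bgn, the matrix proteoglycan biglycan, rose at its brighter probe (0.87, 0.84, 1.01 and 0.79, pool 0.61, fitted 0.74, adjusted p = 0.0128) but not at its second (-0.23, adjusted p = 0.447), so its direction depends on the probe.

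A further 6 probes that passed had no gene name in the sources used here. Of these, 1 rose (0.95, adjusted p = 0.0075 from limma) and 5 fell by 1.19 to 1.58 on the log2 scale, at adjusted p of 0.0011 to 0.00297. All 6 had 1 sign on all 5 arrays. Some of them carry a transcript identifier that could not be matched to a gene name. The Ahcy probe was assigned to the Ahcy transcript. RefSeq lists 9 Ahcy pseudogenes in the rat (GRCr8), and whether the Ahcy probe also binds other transcripts was not tested. No link between the unnamed probes and Ahcy was tested either.

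The pool was the only array with siFoxE1 in Cy3. Over 9884 genes with a value on every array, the mean of the individual arrays and the pool had the same sign for 59% and a Pearson's r of 0.466 across genes. The coefficient of the dye had an SD of 0.106 over genes, against 0.175 for the log2 fold change. It reached 0.5 in size for 16 genes. The largest was that of Adam34, a disintegrin gene, whose ratio was 1.56, 1.30, 1.26 and 1.05 in the cultures and -0.56 in the pool.

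**Figure D2:**
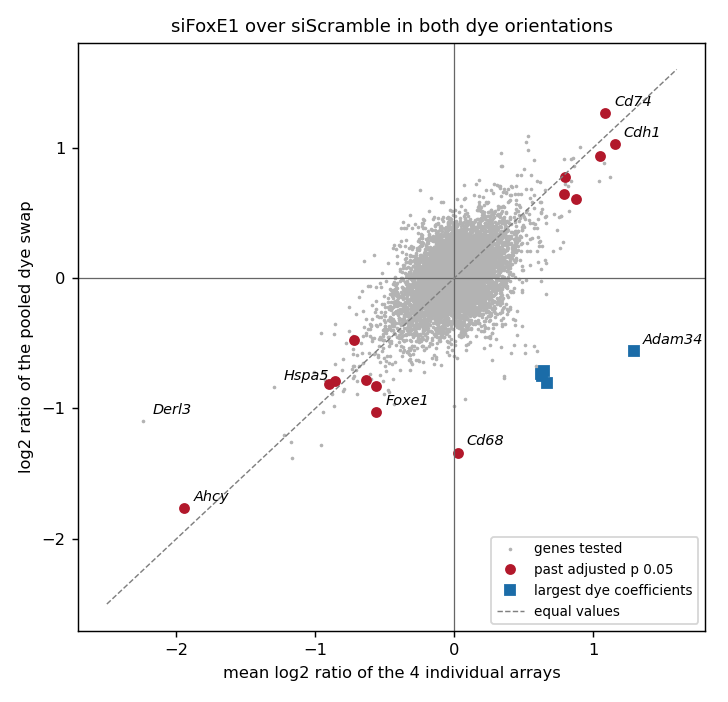
Mean log2 ratio of the 4 individual arrays, siFoxE1 in Cy5 (horizontal axis), against the log2 ratio of the pooled array, siFoxE1 in Cy3 (vertical axis), for each gene tested. Red circles are the 14 genes past adjusted p 0.05. Most lie near the dashed line of equal values, but Cd68 lies far below it and Foxe1 (-0.56 against -1.03) lies below it by less. Blue squares are genes with the largest dye coefficients, which lie above 0 on the horizontal and below 0 on the vertical axis.

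The promoter windows given by RefSeq (GRCr8), 250 bases before to 50 after a start of transcription, were searched for the FoxE1 core AAACA and for TTGG followed by AAACA after 5 to 30 bases, letters found in sites of nuclear factor I and of FoxE1, on both strands. Windows were matched by symbol for 8 of the 14 genes. The core was in 4 of these 8 windows, against 51.9% of all 33469 windows and 37.1% of the windows of genes tested. The pair was in 1 of the 8, that of RT1-Bb, against 7.38 and 4.72%. The Duox2 window held neither, and Tg and Foxe1 were not matched. The publication searched a wider region around each start, lists such pairs for Duox2 and reports FoxE1 bound to its chromatin. An empty window here therefore does not mean that the gene has no such pair. A match is a description of letters and not a site. The pairs found among the called, the 20 highest, the 20 lowest and the thyroid genes searched are shown because they are the stretches with both motifs, with the motif letters in capitals and the gene's own strand read 5′ to 3′. The first lies at chr20:4604346-4604367 on the minus strand, at -249 to -228 from the RT1-Bb start. The second lies at chr9:1047819-1047833 on the minus strand, at -91 to -77 from a start of Sema6b, a semaphorin (fitted 0.74, adjusted p = 0.166). That start lies within the listed span of the gene (chr9:1038103-1055063). The third lies at chr5:127319939-127319974 on the minus strand before Dio1, a deiodinase that activates thyroid hormone (fitted 0.36, adjusted p = 0.258). The last lies at chr3:183489448-183489468 on the plus strand in 1 of the 3 windows of Gnas, the stimulatory G protein subunit that carries the TSH signal (fitted 0.08, adjusted p = 0.687).
RT1-Bb: TTGGttctttaaaccccAAACA
Sema6b: TTGGatttttAAACA
Dio1: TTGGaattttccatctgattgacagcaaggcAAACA
Gnas: TTGGccaaatcttctcAAACA

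Stretches are given for Ahcy and Cd74, which had the largest fall and the largest rise among the called genes. They are the 250 bases before the start of transcription used by the window, with AAACA, TTGG and their reverse complements in capitals. For Cd74 that start lies within the listed gene, which begins at 56527071, so the later part of its stretch is inside the gene. Ahcy (chr3:164044563-164044812, minus strand) had no AAACA here and Cd74 (chr18:56526956-56527205, plus strand) had 2. The second of these is on the reverse strand, and its letters run into a TTGG.
Ahcy: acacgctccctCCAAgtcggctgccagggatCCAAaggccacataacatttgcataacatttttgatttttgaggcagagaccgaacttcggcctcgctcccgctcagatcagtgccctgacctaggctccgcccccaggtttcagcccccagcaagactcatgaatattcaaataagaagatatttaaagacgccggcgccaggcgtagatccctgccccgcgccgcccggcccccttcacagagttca
Cd74: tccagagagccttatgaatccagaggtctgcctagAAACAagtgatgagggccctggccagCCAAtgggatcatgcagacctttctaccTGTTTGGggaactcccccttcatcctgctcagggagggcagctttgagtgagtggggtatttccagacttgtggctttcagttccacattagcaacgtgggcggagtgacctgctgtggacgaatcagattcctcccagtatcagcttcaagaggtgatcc

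MHC class II molecules present peptides on the surface of antigen-presenting cells, and epithelial cells can make them too. Of 10 genes listed 7 were tested, without Ciita, RT1-Ba and RT1-DOa, which were on the array. Of the 7, 2 rose, 6 had an unadjusted p under 0.05 above 0 (8.95% of all genes), and none lay below 0. RT1-DOb was near 0 (0.02, adjusted p = 0.962 from limma). The median of the list was 0.79, against 0.00 for all genes. It was 0.53, 0.47, 0.85 and 0.94 in the cultures and 0.75 in the pool, so that no array was below 0.4. With no filter on dim probes the median of the fitted values was 0.35. Of the members outside the 2 called, RT1-Db1, a beta chain, gave 0.75, 0.87, 1.23 and 1.32 and 0.75 in the pool and missed the threshold narrowly (fitted 0.89, adjusted p = 0.0501), with 0.69 at its second probe (adjusted p = 0.0813). RT1-Da, an alpha chain, had a fitted value of 0.95 (adjusted p = 0.096), and RT1-DMb, which helps load peptides, of 0.36 (adjusted p = 0.265). On the intensity scale, where dye and siRNA cannot be told apart, the RT1-Da and RT1-Db1 cultures of both groups did not overlap. The mean level of the list was 8.29 to 8.47 in the siScramble cultures and 8.92 to 9.29 in the siFoxE1 cultures. MHC class I genes, which present peptides of the cell's own proteins, had a median of 0.16 over 11 genes, of which 3 had an unadjusted p under 0.05, all above 0. RT1-A1, a classical class I chain, had 0.25 (adjusted p = 0.248). MHC class II is also a mark of leukocytes. The 6 leukocyte markers tested had a mean log2 intensity of 6.69 to 6.89 in the siScramble and 6.77 to 6.86 in the siFoxE1 cultures. Their median log2 fold change was 0.01, with 2 at an unadjusted p under 0.05 above 0 (8.95% of all genes). Below 0 it was 1 (7.67%), Cd68, whose value rests on the pool. The other 8 of the 14 were too dim to be tested or not named on the array.

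Epithelial junction and keratin genes leaned the same way. Of 43 genes listed 27 were tested, and 2 of these rose and none fell. Krt8, Krt18, Krt19, Epcam and the claudin genes were among those not tested. An unadjusted p under 0.05 was reached by 16 above 0 (8.95% of all genes) and 1 below (7.67%). Above 0 on all 5 arrays were 12 (10.1% of all genes were), with 3 below 0 on all 5 (11%). Fitted values ran from -0.30 to 1.09. The list's median was 0.20, with 0.14, 0.08, 0.28 and 0.09 in the cultures and 0.27 in the pool. With no filter on dim probes the median was 0.06. Beside Cdh1 and Prss8, the largest were Krt20, an intermediate filament keratin (0.60, adjusted p = 0.196), Itgb4, the integrin subunit of hemidesmosomes (0.60, adjusted p = 0.0785), and Bcam, a laminin receptor (0.50, adjusted p = 0.25). The siScramble cultures were very alike in the mean level of these genes, 9.05 to 9.11, and every siFoxE1 culture was above them, at 9.22 to 9.40. Mesenchymal genes showed a median of 0.06 over 11 genes, with 1 unadjusted p under 0.05 in each direction.

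S100 calcium-binding proteins were above 0 for all 9 genes tested, although none passed the adjusted test. Of them 7 had an unadjusted p under 0.05 (8.95% of all genes above 0) and 7 were above 0 on all 5 arrays (10.1%). S100a4 gave 1.03, 0.57, 1.26 and 1.39 in the cultures and 0.91 in the pool (fitted 0.99, adjusted p = 0.0785), S100a6 a fitted value of 0.62 (adjusted p = 0.161) and S100a11 of 0.35 (adjusted p = 0.233). Among 14 genes of the extracellular matrix and its proteases, 7 had an unadjusted p under 0.05, all 7 above 0 (8.95% of all genes). The highest was Adamts9, a secreted metalloprotease that cuts proteoglycans, with 0.65, 1.05, 1.28 and 1.50 in the cultures and 0.77 in the pool (fitted 0.95, adjusted p = 0.0864). Lamb3, a laminin chain of basement membranes, had 0.44 (adjusted p = 0.163).

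Of the 20 highest genes with 1 sign on all 5 arrays, 6 had passed and 4 belonged to MHC class II. The others not named so far spanned several roles. Folr1, the folate receptor alpha of epithelia, gave 0.72, 0.42, 1.18 and 1.05 and 0.91 in the pool (fitted 0.88, adjusted p = 0.096). Elovl2, an elongase of polyunsaturated fatty acids, ranged from 0.14 in replicate 1 to 1.34 in replicate 3 (fitted 0.89, adjusted p = 0.191). Fgf18, a growth factor of the FGF family, ranged from 0.28 to 1.37 (fitted 0.76, adjusted p = 0.221). R3hdml (0.85, adjusted p = 0.0576), Psapl1 (0.86, adjusted p = 0.155), Crip1 (0.79, adjusted p = 0.166), Dynlrb2, a dynein light chain (0.76, adjusted p = 0.168), and Sh3tc1 (0.76, adjusted p = 0.0864) completed the list with Sema6b and Duox2. Of 15 genes with an adjusted p between 0.05 and 0.1, 10 were above 0.

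Thyroid hormone is made from iodide that the symporter Nis (Slc5a5) brings into the follicular cell. It leaves into the lumen through the exchanger pendrin (Slc26a4) and the channel anoctamin 1 (Ano1), and is coupled to tyrosines of Tg with hydrogen peroxide from the dual oxidases, which need the maturation factors Duoxa1 and Duoxa2. Of 18 genes of synthesis and iodide handling tested, none passed the adjusted test, and the median was 0.10. An unadjusted p under 0.05 was reached by 6 above 0 (8.95% of all genes) and 3 below (7.67%). Those below 0 included Slc5a5 and Tg. Slc5a5 gave -0.68, -0.10, -0.27 and -0.22 and -0.29 in the pool (fitted -0.31, adjusted p = 0.302), with -0.31 at its second probe. Tg gave -0.11, -0.08, -0.14 and 0.06 and -0.36 in the pool (fitted -0.21, adjusted p = 0.285). Slc5a5 was thus below 0 on all 5 arrays, and Tg on 4.

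The genes of the peroxide-generating system lay on the other side of 0. Duox2 gave 0.29, 0.95, 1.53 and 1.54 in the cultures and 0.88 in the pool (fitted 0.98, standard error 0.217, adjusted p = 0.196). Its siScramble level ran from 8.23 in culture 1 to 10.99 in culture 2, a span wider than any of its ratios. Its partner Duoxa2 had a fitted value of 0.52 (adjusted p = 0.157), and Duoxa1 and Duox1, which stand next to this pair on the same chromosome, had 0.36 (adjusted p = 0.27) and 0.24 (adjusted p = 0.471). Slc26a4 was the most even of the thyroid genes plotted, with 0.26, 0.34, 0.31 and 0.32 in the cultures and 0.34 in the pool (fitted 0.32, adjusted p = 0.168), and the siScramble level of 6.18 to 6.36 did not overlap the siFoxE1 level of 6.49 to 6.68. This probe was dim, well above background in the siScramble channel on only 3 of 5 arrays, and its fitted value was 1.25 with Feature Extraction's processed signals (adjusted p = 0.0816). Ano1 had 0.37 (adjusted p = 0.223), with 0.08 at its second probe. Of the transcription factors, Pax8 (0.20, adjusted p = 0.541) and Nkx2-1 (0.17, adjusted p = 0.491) were above 0 in replicates 3 and 4 and nearer to 0 or below it in replicates 1 and 2, and the TSH receptor gene Tshr had -0.05 (adjusted p = 0.863). A further 9 synthesis genes, Duox1 among them, lay between -0.16 and 0.24. The arrays for each gene are set side by side in the plot of thyroid genes.

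**Figure D3:**
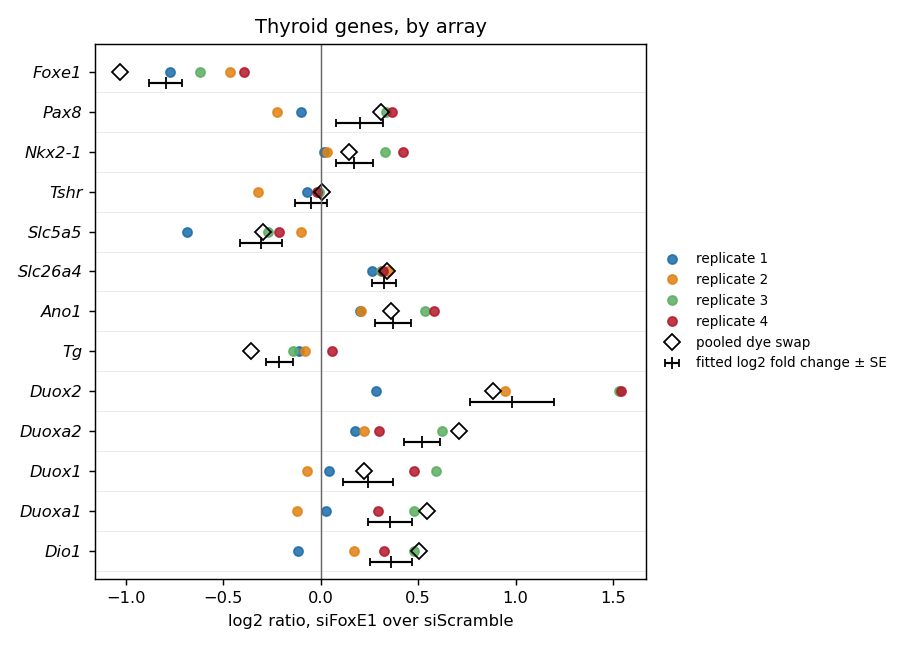
Log2 ratio of siFoxE1 over siScramble (horizontal axis) for 13 thyroid genes, with filled circles for the 4 cultures, open diamonds for the pooled dye swap and bars for the fitted value ± its standard error. Foxe1 and Slc5a5 lie below 0 on all 5 arrays, and Slc26a4, Ano1, Duox2 and Duoxa2 above 0 on all 5.

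Many of the lowest fitted values belonged to genes of the endoplasmic reticulum (ER), where secreted proteins such as Tg are folded. ER chaperones, proteins of ER-associated degradation (ERAD) and factors of the integrated stress response are induced together when unfolded proteins build up. None of these genes passed the adjusted test. Of 26 chaperones and folding enzymes, 6 had an unadjusted p under 0.05 below 0 (7.67% of all genes) and 1 above, with a median of -0.48. Of 16 ERAD genes it was 9 below and none above (median -0.25), of 28 genes of ER to Golgi transport 16 and none (median -0.31), and of 28 genes of the integrated stress response 21 and none (median -0.28). Below 0 on all 5 arrays were 7, 9, 9 and 14 members, in this order, where 11% of all genes were. The 19 cytosolic aminoacyl-tRNA synthetases, which charge tRNAs and include targets of Atf4, were all below 0. Of these, 12 had an unadjusted p under 0.05 (7.67% of all genes below 0), and the median was -0.25.

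The size of this shift depended on the culture. The chaperone list had a median of 0.00 and -0.10 in replicates 1 and 2, of -1.32 and -0.91 in replicates 3 and 4, and of -0.37 in the pool. On the intensity scale the siScramble cultures stood at 12.53, 10.55, 11.71 and 11.96 and the siFoxE1 cultures at 12.48, 10.48, 10.49 and 11.11. Culture 1 was therefore high and culture 2 low under both siRNAs, and cultures 3 and 4 were lower with siFoxE1. The control cultures alone spanned 1.98 log2 units, more than the difference between both siRNAs in any culture. Genes of the integrated stress response shifted more evenly, with medians of -0.18, -0.20, -0.56 and -0.25 in the cultures and -0.25 in the pool, and their siScramble level spanned 1.25. By contrast the siScramble level of MHC class II and of the epithelial list spanned 0.18 and 0.07.

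**Figure D4:**
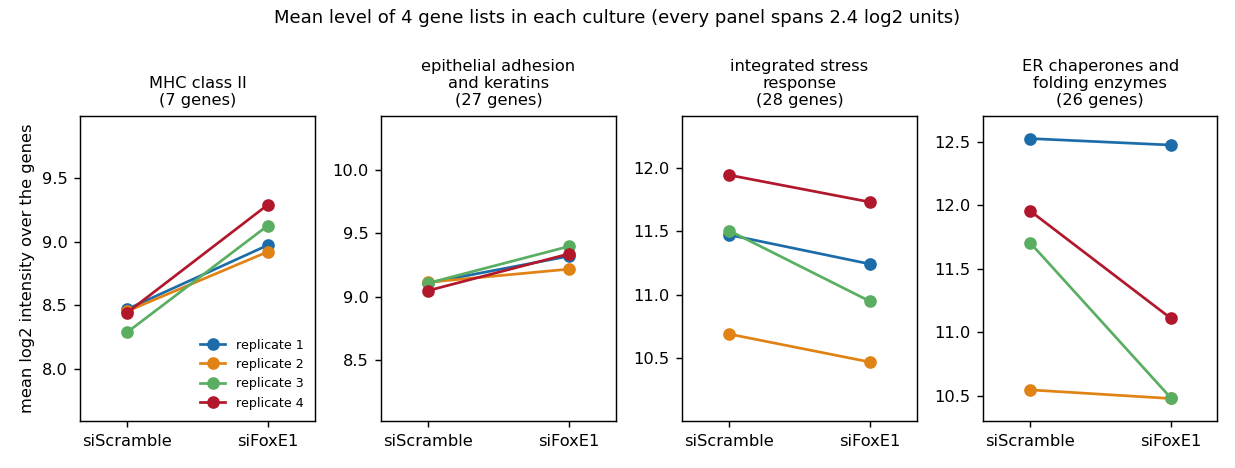
Mean log2 intensity over the genes of 4 lists (vertical axis, each panel 2.4 log2 units high) in the siScramble and the siFoxE1 sample of each culture, joined by a line. All 4 cultures rise in MHC class II and in the epithelial list from a narrow start, whereas the ER list starts from 10.55 to 12.53 and drops in replicates 3 and 4.

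Single genes of these lists varied in the same way. Hspa5, the chaperone BiP, gave -0.42, -0.16, -3.24 and -1.36 in the cultures and -0.83 in the pool, from siScramble levels of 17.07, 13.83, 16.57 and 17.16 (fitted -1.06, standard error 0.491, adjusted p = 0.41). Derl3, a channel protein of ERAD, had the widest spread between cultures of all genes tested, with -0.49, -0.35, -5.21 and -2.91 (pool -1.10, fitted -1.67, adjusted p = 0.429), from siScramble levels of 14.66, 7.26, 13.43 and 13.80. Herpud1, an ERAD scaffold, was lower in every culture (-0.94, -0.38, -2.35 and -1.04, pool -1.25, fitted -1.22, adjusted p = 0.217). Ddit3, the stress factor CHOP, gave -0.09, -0.68, -2.40 and -0.61 and -1.03 in the pool (fitted -0.99, adjusted p = 0.306). Hsp90b1, Creld2 and Dnajb9, other ER proteins, were among the 8 genes with the widest spread and were not of 1 sign, with 0.16, -0.39 and 0.14 in replicate 1 and -2.29, -2.73 and -2.04 in replicate 3.

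Other genes of these lists moved less but more evenly. Atf4, the central factor of the integrated stress response, gave -0.43, -0.52, -0.76 and -0.28 in the cultures and -0.37 in the pool (fitted -0.43, adjusted p = 0.193). Psph, a serine synthesis enzyme, gave -0.52, -0.28, -0.82 and -0.49 and -0.47 in the pool (fitted -0.50, adjusted p = 0.168). Pycr1 of proline synthesis had -0.42 (adjusted p = 0.262), the synthetase genes Sars1 and Eprs1 had -0.41 and -0.39 (adjusted p = 0.235 and 0.287), Selenos, a selenoprotein of ERAD, had -0.53 (adjusted p = 0.223), and Bet1, a SNARE of ER to Golgi transport, had -0.58 (adjusted p = 0.292).

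On replicate 3, 85 genes had a ratio of -1 or below, and 27 of these (31.8%) were in the 3 ER lists or the stress response list, which hold 0.991% of the genes tested. The lists were written with earlier results of these data known, so these shares describe the lists and are not a test of them. Of the 85, 38 were at -1 or below on replicate 4 too, 2 on replicate 1 and 1 on replicate 2. Of the 20 lowest genes with 1 sign on all 5 arrays, 4 had passed the adjusted test, 7 were in these lists, and 19 had their lowest ratio on replicate 3. Outside the lists they included Mfsd2a, a transporter of lysophospholipids (-1.30, -0.04, -1.94 and -1.64, pool -1.20, fitted -1.22, adjusted p = 0.217), Gmppb, which makes GDP-mannose for glycosylation (-1.12, adjusted p = 0.233), Etv5, an Ets factor downstream of ERK (-0.93, and -0.44 at its second probe, adjusted p = 0.224 and 0.166), and Coq10b, a chaperone of coenzyme Q (-0.89, adjusted p = 0.183). Cd6 (-0.76, adjusted p = 0.217), Engase (-0.73, adjusted p = 0.223), Ankrd37 (-0.83, adjusted p = 0.333), Saraf (-0.79, adjusted p = 0.248) and Zfand2a (-0.75, adjusted p = 0.248) were of like size.

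Signalling genes gave mixed values. Of 19 genes of ERK feedback, 6 had an unadjusted p under 0.05 below 0 (7.67% of all genes) and 2 above (8.95%), with a median of -0.07. The phosphatase genes Dusp5 (-0.65, adjusted p = 0.285) and Dusp4 (-0.36, adjusted p = 0.221) stood against the inhibitor gene Spry1 (0.48, adjusted p = 0.183). In a list of growth factors, receptors and their partners, mainly of the EGF, FGF and insulin-like families, Areg was the 1 gene of 21 tested that passed, and the median was 0.01. Of 20 cAMP and immediate early genes, 6 had an unadjusted p under 0.05 below 0 and 2 above, with Nr4a2, a nuclear receptor, at -0.64 (adjusted p = 0.232). Of 19 genes of TGF-beta and YAP output it was 6 above 0 and 1 below, the matrix protein gene Ccn2 with -0.44, -0.88, -0.97 and -0.37 and -0.57 in the pool (fitted -0.62, adjusted p = 0.168), while the inhibitor gene Smad6 had 0.52 (adjusted p = 0.223).

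Interferon-stimulated genes had a median of 0.17 over 33 genes. An unadjusted p under 0.05 was reached by 11 above 0 (8.95% of all genes) and 3 below (7.67%), the latter near the share of all genes. Isg15, a ubiquitin-like modifier, gave 0.11, 0.30, 0.58 and 1.07 and 0.69 in the pool (fitted 0.60, adjusted p = 0.224), and Stat2, which carries the interferon signal, gave -0.48, -0.26, -0.67 and -0.55 and -0.42 in the pool (fitted -0.46, adjusted p = 0.166). Lysosomal proteases and their partners had a median of 0.15 over 19 genes, 6 with an unadjusted p under 0.05, all above 0, among them the cathepsin genes Ctsc (0.38, adjusted p = 0.163) and Ctsb (0.37, adjusted p = 0.191). Among NRF2 targets, Hmox1, a heme oxygenase, had -0.70 (adjusted p = 0.249), and the ferritin gene Fth1 had -0.42 (adjusted p = 0.196) and -0.55 at its second probe (adjusted p = 0.0785). Mvd of cholesterol synthesis had -0.58 (adjusted p = 0.233) and the desaturase gene Fads2 -0.46 (adjusted p = 0.166), within lists whose medians were both -0.07.

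Cell cycle genes had a median of 0.02 over 42 genes, with an unadjusted p under 0.05 for 1 above 0 and 2 below. Their median per culture was -0.35, 0.01, 0.21 and 0.02, so that replicate 1 was the only culture below 0, and their siScramble level spanned 1.18. The plot of list medians by array places all of these beside the whole set of genes.

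**Figure D5:**
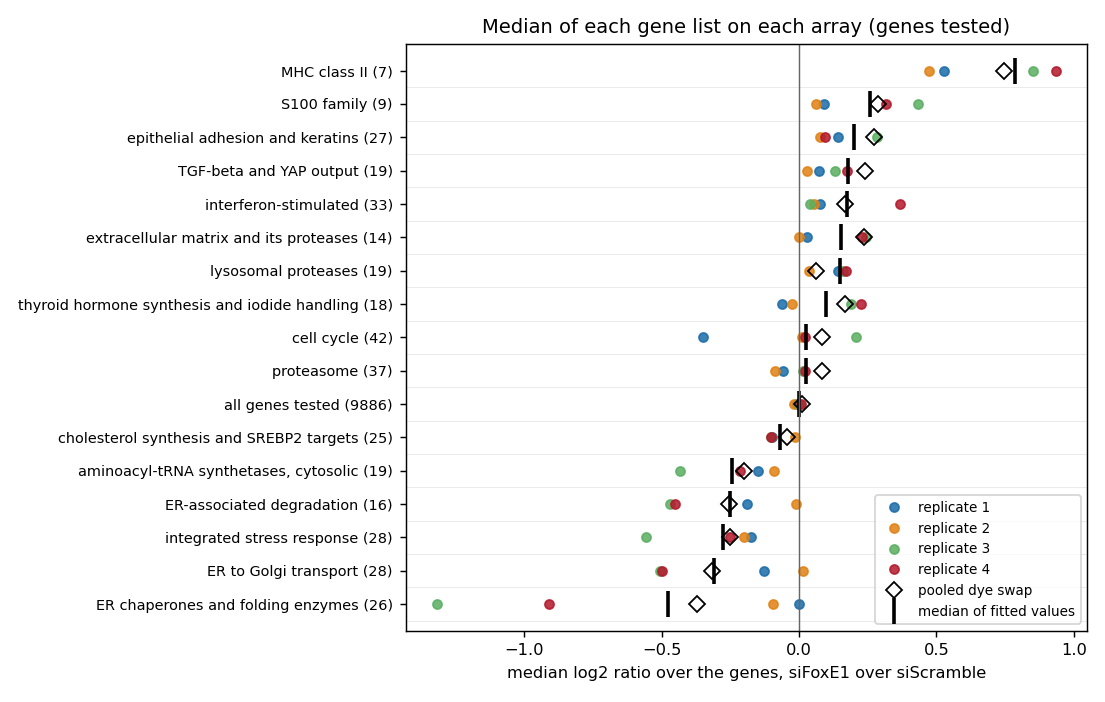
Median log2 ratio of siFoxE1 over siScramble (horizontal axis) for 16 gene lists and for all genes tested, with the number of genes in brackets. Filled circles are the 4 cultures, open diamonds the pooled dye swap and vertical bars the median of the fitted values. MHC class II is above 0.4 on every array, and the ER chaperones spread from 0.00 in replicate 1 to -1.32 in replicate 3.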

How the data were processed

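Spot intensities and log10 ratios of red over green were deposited as Agilent Feature Extraction 10.7.3.1 output. The authors' normalized value table holds deposited log2 ratios made by loess within and quantiles between arrays, with limma 3.2.3 named in the submitters' notes, and was used as an alternative only. Its pool column is already turned to siFoxE1 over siScramble (r = -0.657 with red over green). The labels put siFoxE1 in Cy5 on individual arrays, while a drawing of the design in the publication shows the reverse. The labels were followed.

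Here, median signals were corrected by normexp (offset 50) and normalized by loess within and quantiles between the 10 arrays. Control and outlier spots were left out (1.26 to 1.6% of spots were outliers), and spots of a probe were averaged. Probes entered the test if their signal exceeded background clearly, by the scanner software's own call, on 3 or more of 5 arrays in 1 channel. limma 3.58.1 (R 4.3.3) was fitted with a dye term and Benjamini-Hochberg adjustment over 18124 probes, after 15 without all coefficients were dropped. In this fit the pool alone sets the dye term: a fitted value is the average of the mean of the 4 cultures and the pool, the spread comes from the 4 cultures, and the pool is assumed to vary like one of them. Of 30367 probes 17998 were named by transcript accession and 201 by the study's tables. A gene is its brightest tested probe. Intensities per channel may hold dye bias.

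Of 815 members of 37 gene lists, 633 were tested. The comparison, the lists and the rule for named genes were chosen with earlier results of these data known. Genes to name were taken from all called genes, the 20 highest and 20 lowest with 1 sign on 5 arrays, measured thyroid genes, up to 5 members per list with 1 sign, the 8 widest spreads and the 6 largest dye coefficients. Not every gene of this rule is described, and 1 is left out as not reported here. Rose or fell stands for an adjusted p under 0.05. The replicate numbers pair the siFoxE1 extracts with those of the comparison with wild type (drawn so in the publication, r = 0.612, 0.754, 0.757 and 0.403 between deviations of the same number; replicate 4 correlated more with the wild-type replicate 3, at 0.501). The fit was tested on simulated data, where its estimates averaged close to the shifts put in and a part of the shifted probes, larger for small shifts, was not called. The 5 simulated arrays were drawn as independent with the same SD for a probe, so this could not test the assumption made about the pool. Python 3.11.15, pandas 2.3.3 and matplotlib 3.10.9 were used for motifs and plots. The number of arrays limits the precision.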

Additional observations from a re-analysis of the deposited data

Results flagged for a closer look

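Among 99 genes and 18 lists, 5 had 1 culture that stood apart from the other 3 by more than the critical value of Dixon's test, where chance gives about 1 in 20. The count of 5 is no more than that share, so it does not stand out from chance. Prss8 was lowest in replicate 2, at 0.60. Cebpd was lowest in replicate 3, at -0.89. Cd68 was highest in replicate 1, at 0.10, over a total spread that was itself narrow. The median of the ERK feedback genes was -0.28 in replicate 3, and that of the interferon-stimulated genes 0.37 in replicate 4. The causes of these gaps were not tested.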

How the results depend on the processing

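Of 99 genes followed, 97 kept their direction under all 22 alternatives run, of which 1 was added after seeing the data. The exceptions were Cd68, at 0.0255 for the cultures without the pool and 0.0314 within slide 1, and Gnas, at -0.0048 with the mean over a gene's probes. Fitted values moved by over 1.5 times for 36 of the 99 within slide 1, 19 with the slide as a block, 14 for the cultures without the pool and 12 with processed signals. RT1-Bb was 1.63 with processed signals and Bgn 0.26 with the mean over its probes. The median of all genes moved by at most 0.0105. The count of 14 genes became 524 when the dye was not modelled, 359 for the cultures without the pool, 0 with Feature Extraction's processed signals (1277 genes at an unadjusted p under 0.05, smallest adjusted p = 0.0587 from limma), 8 with no filter on dim probes (Ahcy, Areg, Bgn, Cd68, Cd74 and Sem1 still passed, the other 8 of the 14 did not), 44 with the slide as a block (RT1-Bb and Slc5a3 no longer passed), 24 within slide 1, 45 in a fit of all 10 arrays with the replicate block (12 of the 14 among them, without Cd68 and Slc5a3) and 66 in that fit with no replicate block. With no background correction 10 genes passed, without Cdh1, Pacsin2, Prss8 and RT1-Bb. Leaving out 1 replicate gave 5 to 25 genes. The lowest count came when replicate 1 was left out, where Ahcy, Sem1 and Cd74 still passed and the other 11 of the 14 did not, the highest when replicate 2 was, where Cebpd, Gprc5a and Slc5a3 were lost, and 9 genes passed when replicate 4 was, where Cebpd, Pacsin2, Prss8, RT1-Bb and Slc5a3 were lost. Only RT1-Bb was lost when replicate 3 was left out. Replicates 1 and 2 with the pool, the alternative added later, left 1 residual degree of freedom and gave 897 genes, a count that rests on variances pooled over genes. The Foxe1 log2 fold change was -0.78 with processed signals (adjusted p = 0.178), -0.79 without the filter (0.0514) and -0.54 within slide 1 (0.079), and -0.82 to -0.76 when 1 replicate was left out, with an adjusted p of 0.054 without replicate 1. The median of MHC class II was 0.35 without the filter and 0.55 with the mean over a gene's probes, and that of the epithelial list 0.0644 without the filter. The median of the ER chaperones was -0.86 with the slide as a block, -0.35 without replicate 3 and -0.20 with replicates 1 and 2 and the pool. Mean spot signals in place of the median were not run, because the scanner tables used here give spots by their median only.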
